A study of Mus musculus with 10 samples.

Results

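Hox genes encode homeodomain transcription factors that lie in 4 clusters (A, B, C and D) and are grouped into 13 paralog groups by their place in the cluster. Of the 38 Hox cluster genes considered, 33 had a probe set that the platform annotation assigns to exactly 1 gene, and the brightest such probe set (by its mean of the 10 arrays) stood for each gene, as for all 18193 genes measured in this way. Hoxb8 and Hoxd4 were covered only by probe sets shared with a neighbour, and Hoxa6, Hoxc11 and Hoxc12 were not analysed here.

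The arrays came from glomeruli, the filtering units of the kidney, of 10 male mice aged 27 days on an FVB/N background (4 generations of backcrossing), collected with magnetic beads that were perfused through the heart. Mutants (n = 5) were heterozygous for a knock-in of the R394W change in Wt1 (Wt1 +/R394W), a germline allele carried by all cells, and controls (n = 5) were wild-type littermates (Wt1 +/+). The submitters chose mutants with little protein in the urine and without lesions of the mesangium under the light microscope. Each mouse gave 1 array, whose values are log2 expression from RMA, so precision is limited by the 5 arrays in each genotype.

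Hox genes are switched on in order along each cluster in the embryo, so that genes at the 3′ end (low group numbers) act in anterior parts and genes at the 5′ end (high numbers) in posterior parts. Their clusters are kept open by Trithorax and closed by Polycomb complexes, retinoic acid is one of their inducers, and many Hox proteins bind DNA together with the TALE homeodomain proteins of the Pbx, Meis and Pknox families. In the embryonic kidney the group 11 genes act in nephron progenitors and the group 10 genes in the stroma marked by Foxd1, while Hoxb7 is known for its activity in the ureteric bud and the collecting ducts that come from it.

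No Hox gene passed the test between the genotypes. Changes are differences of means on the log2 scale (mutant minus wild type) with their standard error (SE), fitted with limma over 45037 probe sets, and a call needs a Benjamini-Hochberg adjusted p under 0.05 over all of them. Among all 18193 genes 1.26% were called, and among the 33 Hox genes 0 were. Unadjusted p-values lay under 0.05 for 5 of the 33 Hox genes, 4 with a positive and 1 with a negative change. Over all genes 2002, or 11.0%, had such a p. The median change of the 33 Hox genes was -0.01, and that of all genes was 0.00. Positive changes were seen for 15 and negative ones for 18. The 95% interval of the change lay within 2-fold in both directions for 32 of 33 Hox genes and within 1.5-fold for 31. The exception at 2-fold was Hoxb9, and at 1.5-fold Hoxd10 as well.

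**Figure D1:**
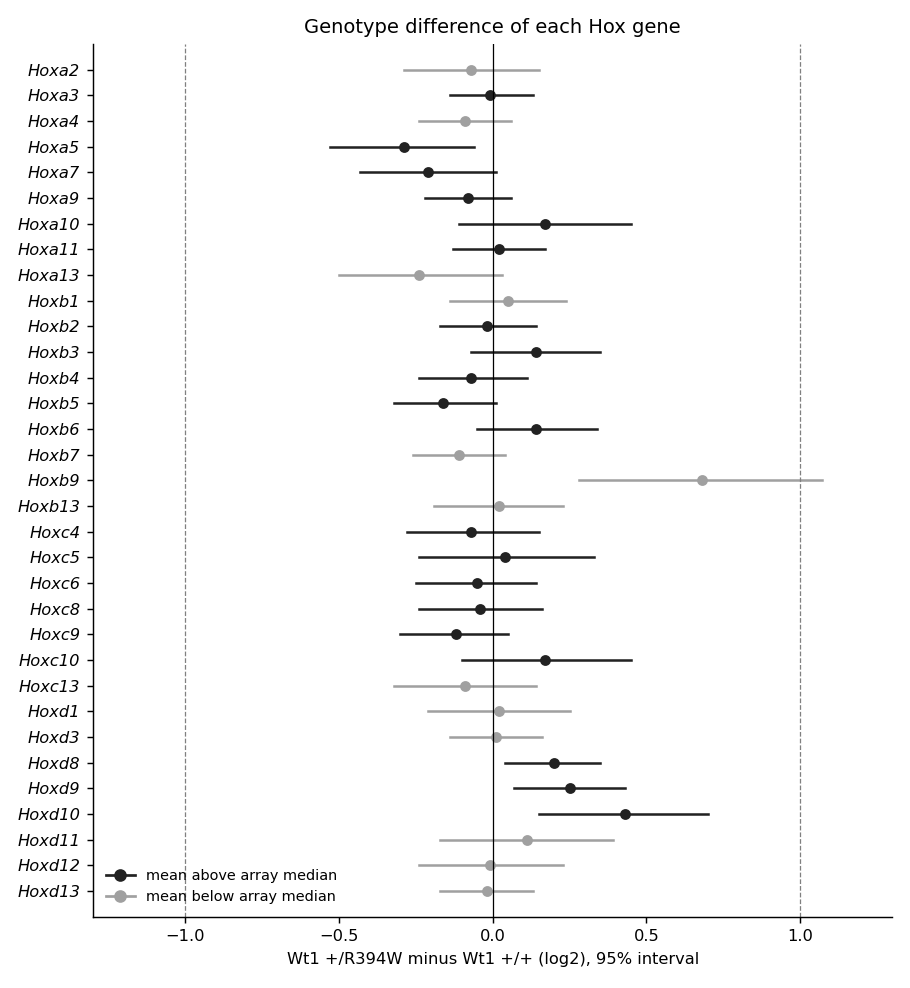
Change between the genotypes (mutant minus wild type, log2 scale) for each of the 33 Hox genes, as points with 95% intervals from limma, n = 5 mice per genotype. Black marks genes with a mean above the array median and grey those below it, and dashed lines stand at a 2-fold change. All intervals lie inside the dashed lines except that of Hoxb9, and the intervals of Hoxa5, Hoxb9, Hoxd8, Hoxd9 and Hoxd10 do not cross 0 before adjustment.

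The preparations carried the marker signal of glomeruli, with all 12 podocyte and all 12 endothelial markers measured above the array median and 10 of 11 mesangial and smooth muscle markers. Podocyte marker means per mouse were 12.34 to 12.51 for wild types and 12.01 to 12.41 for mutants, and endothelial means 11.77 to 11.96 and 11.60 to 11.92. Mesangial and smooth muscle means were 10.48 to 10.77 for wild types and 10.68 to 11.13 for mutants, with a median change of 0.12 over the 11 markers. Means of 9 parietal epithelial markers were 8.17 to 8.28 for wild types and 8.12 to 8.29 for mutants. Tubule content differed widely between mice of both genotypes. The mean of 16 proximal tubule markers was 6.52 to 9.13 for wild types and 6.71 to 10.26 for mutants, where mutant 4 was highest, and that of 10 loop and distal tubule markers was 7.06 to 8.98 and 7.16 to 9.12. Means of 17 collecting duct markers were steadier, between 6.38 and 6.62 for wild types and between 6.18 and 6.59 for mutants. Only 8 of the 17 lay above the array median of 6.36, so these means say little about collecting duct content. Erythroid markers (4 measured) had means of 7.13 to 7.82 in wild types and 6.66 to 7.11 in mutants, apart only between 7.11 and 7.13. Alas2, Slc25a37 and Slc4a1 stood at -0.98, -0.59 and -0.40, while Hba-a1, with a mean of only 4.06, stood at 0.10. Macrophage and lymphocyte markers (11 measured) had means of 6.38 to 7.05 in wild types and 6.33 to 6.89 in mutants. The only markers called were lower in mutants, as were 0.698% of all genes. These were Plce1 of podocytes (-0.74 ± 0.11 SE, adjusted p = 0.00865 in limma), Csf1r of macrophages (-0.99 ± 0.17 SE, adjusted p = 0.022) and Slc25a37 of erythroid cells (-0.59 ± 0.12 SE, adjusted p = 0.0436). The part of cell marker levels in the Hox values was not tested beyond the fits with tubule and collecting duct scores. In these bulk samples, fewer cells of a type and less RNA per cell cannot be told apart. The transcript of Wt1 read 11.30 ± 0.17 (SD, n = 5) in wild types and 11.63 ± 0.16 (SD, n = 5) in mutants, a change of 0.33 ± 0.10 (SE) with an adjusted p of 0.244 in limma. A missense allele need not alter the level of the transcript, so this value does not check the labels.

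Hox genes with signal above the array median lay mostly in paralog groups 4 to 10. The median of all probe set means was 6.36, and 20 of 33 Hox genes lay above it, or 60.6%, against 62.9% of all genes. Probe sets bind with different strength, so these levels are read against the array and not against each other. In HoxA the genes above the median were Hoxa3, Hoxa5, Hoxa7, Hoxa9, Hoxa10 and Hoxa11. HoxB was represented by Hoxb2, Hoxb3, Hoxb4, Hoxb5 and Hoxb6, and HoxC by Hoxc4, Hoxc5, Hoxc6, Hoxc8, Hoxc9 and Hoxc10. From HoxD there were Hoxd8, Hoxd9 and Hoxd10. By paralog group, 3 of 7 measured genes of groups 1 to 3, 10 of 12 of groups 4 to 8, 6 of 7 of groups 9 to 10 and 1 of 7 of groups 11 to 13 were above the median.

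**Figure D2:**
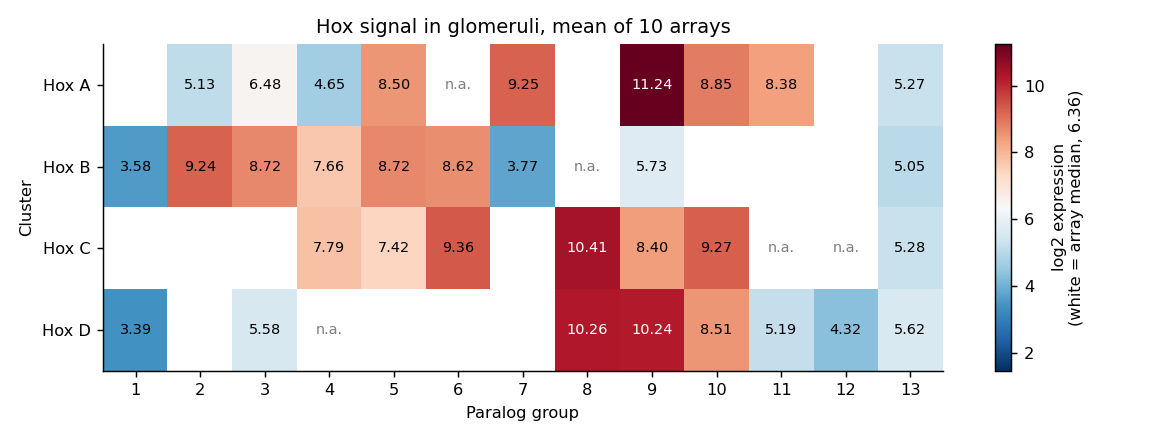
Mean log2 expression over 10 arrays for each measured Hox gene, by cluster (rows) and paralog group (columns), with white at the array median of 6.36, red above it and blue below it. Cells marked n.a. are Hox genes without a single-gene probe set, and other blank cells were not analysed here. All 3 measured genes of group 10 are red, and of groups 11 to 13 only Hoxa11 is.

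Genes of olfactory receptors, taken here as little used in glomeruli, served to describe background signal. Whether some of them are expressed in these preparations was not tested. Their 43 single-gene probe sets had a median of 4.59 and a 95th percentile of 6.24. The same 20 Hox genes lay above that percentile, which is close to the array median of 6.36, so this adds little to the first cut-off. Above the 99th percentile of 6.52 lay 19 Hox genes. Nearest to the array median were Hoxa3 on the upper side, at a mean of 6.48, and Hoxb9 on the lower side, at 5.73. Of the 3 other probe sets of Hoxa3, at 6.47, 5.29 and 4.06, only the first was above the median.

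The 13 genes below the median had means from 3.39 (Hoxd1) to 5.73. They include Hoxb1 (mean 3.58), which specifies a hindbrain segment, and Hoxa2 (5.13), which patterns the branchial arches. At the posterior end they include Hoxb13 (5.05), a prostate factor, Hoxc13 (5.28), a hair follicle factor, and Hoxa13 (5.27) and Hoxd13 (5.62), which shape the digits. Of group 11, the kidney progenitor genes, Hoxa11 read 8.38 in the mean and Hoxd11 5.19. The single-gene probe set of Hoxb7 read 3.77, between 3.73 and 4.0 in wild types and between 3.64 and 3.83 in mutants. Hoxa4 (4.65), Hoxd3 (5.58) and Hoxd12 (4.32) complete the list.

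Along HoxD, on chromosome 2, Hoxd8, Hoxd9 and Hoxd10 were above the array median. Hoxd1 and Hoxd3 on the 3′ side and Hoxd11, Hoxd12 and Hoxd13 on the 5′ side were below it. Hoxd4, also on the 3′ side, had no single-gene probe set and is not placed here. The probe sets it shares are given under other observations. Wt1 lies on the same chromosome, so effects of DNA linked to the targeted allele and of the allele itself cannot be told apart there. The 250 bases before each annotated start of Hoxd8, Hoxd9, Hoxd10 and the next gene, Hoxd11, are printed here from RefSeq (GRCm38.p6, plus strand), because Hoxd8, Hoxd9 and Hoxd10, which adjoin each other, were 3 of the 4 Hox genes with a positive change at an unadjusted p under 0.05. Hoxd11 has 2 annotated starts. Capitals mark matches, on either strand, to 4 sets of letters. These were TATAAA, the core of the box that sets many starts, the letters CCAAT of the NF-Y box, the letters GCGNGGGNG, which take in sites of the zinc fingers of WT1 and of the EGR factors, and the letters TGATNNAT, a site for a Hox protein with a Pbx partner. Matches do not overlap in the windows shown.
Hoxd8, chr2:74704365-74704614: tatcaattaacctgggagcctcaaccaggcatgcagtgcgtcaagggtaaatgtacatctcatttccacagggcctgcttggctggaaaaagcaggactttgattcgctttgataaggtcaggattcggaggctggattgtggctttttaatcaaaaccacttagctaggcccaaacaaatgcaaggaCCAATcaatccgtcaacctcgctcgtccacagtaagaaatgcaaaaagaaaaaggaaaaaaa
Hoxd9, chr2:74697513-74697762: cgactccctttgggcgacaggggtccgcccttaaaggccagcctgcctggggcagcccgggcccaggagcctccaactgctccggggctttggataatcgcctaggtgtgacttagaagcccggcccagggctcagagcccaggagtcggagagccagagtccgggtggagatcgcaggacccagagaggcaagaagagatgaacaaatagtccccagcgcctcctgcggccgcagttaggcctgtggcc
Hoxd10, chr2:74691641-74691890: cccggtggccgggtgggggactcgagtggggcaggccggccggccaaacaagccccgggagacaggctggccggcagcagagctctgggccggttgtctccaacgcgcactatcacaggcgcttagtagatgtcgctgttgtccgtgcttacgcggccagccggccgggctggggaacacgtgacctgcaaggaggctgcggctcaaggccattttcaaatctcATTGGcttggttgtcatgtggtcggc
Hoxd11, start farther from Hoxd10, chr2:74679308-74679557: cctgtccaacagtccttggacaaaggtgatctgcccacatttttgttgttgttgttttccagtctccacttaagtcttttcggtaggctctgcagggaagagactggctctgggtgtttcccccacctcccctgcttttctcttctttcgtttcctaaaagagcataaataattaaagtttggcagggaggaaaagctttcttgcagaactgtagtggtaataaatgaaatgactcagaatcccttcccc
Hoxd11, start nearer to Hoxd10, chr2:74682073-74682322: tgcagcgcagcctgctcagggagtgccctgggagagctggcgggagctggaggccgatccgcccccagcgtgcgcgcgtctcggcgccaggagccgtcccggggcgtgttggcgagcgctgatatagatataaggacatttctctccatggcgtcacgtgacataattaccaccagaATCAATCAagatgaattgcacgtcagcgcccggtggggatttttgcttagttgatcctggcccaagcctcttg

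In these windows the capitals are a CCAAT match that begins 62 bases before the start of Hoxd8, another at 26 bases before that of Hoxd10, and TGATNNAT at 73 bases before the nearer start of Hoxd11. The GC share was 44.4% for Hoxd8, 65.2% for Hoxd9, 65.6% for Hoxd10, and 44.8% and 60.4% for the starts of Hoxd11. Promoters were found for 22 of the 38 Hox genes, with 24 starts. CCAAT was present before 14 of these 24 starts (58.3%) and before 33.8% of all 32851 starts, TATAAA before 4 (16.7%) against 12.4%, GCGNGGGNG before 6 (25%) against 10.5%, and TGATNNAT before 4 (16.7%) against 7.68%. The median ratio of observed to expected CG pairs was 0.721 in Hox promoters and 0.373 in all of them. These matches describe letters only.

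The 3 HoxD genes above the median pattern the trunk and limbs in the embryo. Hoxd10 read 8.08, 8.57, 8.55, 8.12 and 8.17 in wild types 1 to 5 and 8.80, 8.55, 8.74, 8.54 and 8.99 in mutants 1 to 5. Wild types 2 and 3 lay within the mutant range, and the other 3 below it. Its change of 0.43 ± 0.12 (SE, adjusted p = 0.221 in limma) had a 95% interval from 1.11-fold to 1.62-fold. Among the 20 Hox genes above the array median it had the largest change and the smallest unadjusted p, at 0.00532. With wild types 2 to 4 and mutants 1 to 4 alone, whose animal numbers are near each other, the change was 0.25 (adjusted p = 0.802 in limma).

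Hoxd9, a gene of lumbosacral patterning, read 9.96, 10.37, 10.11, 9.99 and 10.16 in wild types and 10.34, 10.31, 10.48, 10.29 and 10.40 in mutants. Only wild type 2 reached the mutant range. The change was 0.25 ± 0.08 (SE, adjusted p = 0.312 in limma). For Hoxd8, its 3′ neighbour, the values were 10.05, 10.18, 10.31, 10.07 and 10.18 in wild types and 10.21, 10.39, 10.46, 10.34 and 10.36 in mutants. Wild type 3 and mutant 1 made the groups overlap. Its change was 0.20 ± 0.07 (SE, adjusted p = 0.349 in limma), and a probe set of lower signal for the same gene, with a mean of 9.60, gave 0.07 ± 0.07 (SE). Across the 5 measured HoxD genes below the median, changes ran from -0.02 (Hoxd13) to 0.11 (Hoxd11). Hoxd4, without a single-gene probe set, was not among them.

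**Figure D3:**
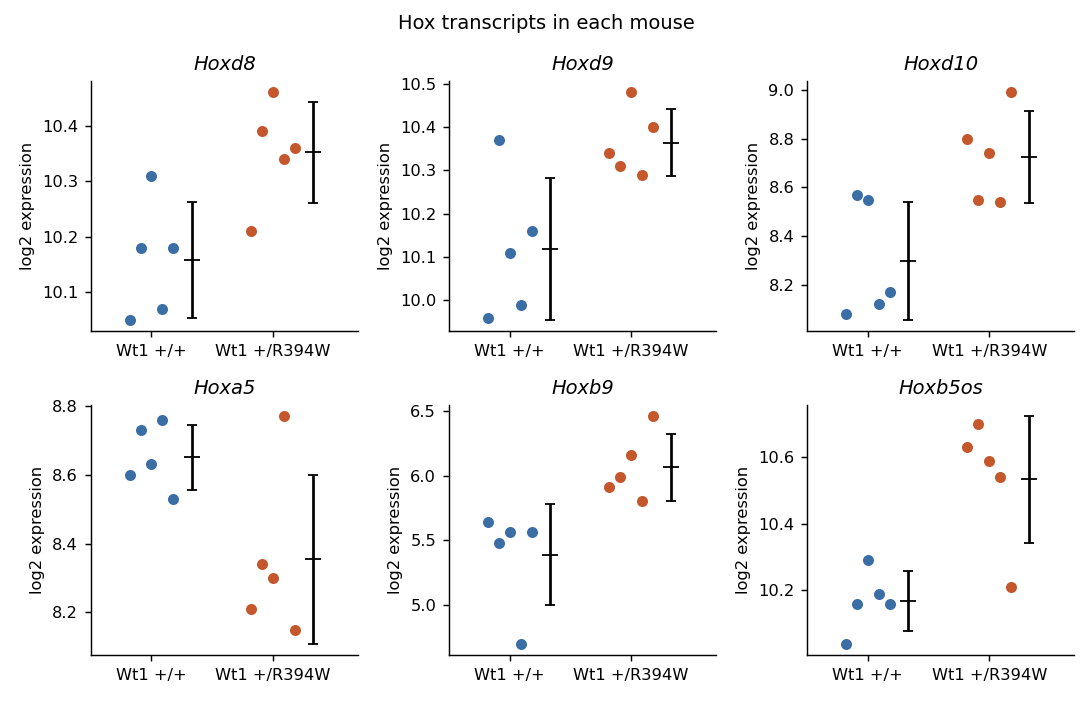
Log2 expression in each mouse (points; wild type in blue, mutant in orange) with mean ± SD beside them, n = 5 per genotype, for Hoxd8, Hoxd9, Hoxd10, Hoxa5, Hoxb9 and the antisense transcript Hoxb5os; each panel has its own scale, which does not start at 0. The genotypes are separate only for Hoxb9. Mutant 4 stands at 8.77 for Hoxa5, above every wild type, and mutant 5 at 10.21 for Hoxb5os, within the wild-type range.

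In HoxA, 2 of 9 measured genes had a positive change. Hoxa5, which is needed for the lung and trachea, read 8.60, 8.73, 8.63, 8.76 and 8.53 in wild types and 8.21, 8.34, 8.30, 8.77 and 8.15 in mutants. Mutants 1, 2, 3 and 5 lay below every wild type and mutant 4 above them all. The change of -0.29 ± 0.11 (SE) did not pass over all 10 mice (adjusted p = 0.384 in limma). Without mutant 4 it was -0.40 and passed (adjusted p = 0.0375 in limma), while without any other 1 mouse it did not pass (adjusted p up to 0.605). Mutant 4 also had the highest proximal tubule mean, 10.26, and with a tubule score as covariate the change was -0.33 (adjusted p = 0.164 in limma). The other probe set of Hoxa5 (mean 7.79) gave -0.09 ± 0.07 (SE).

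Hoxa7 read 9.20, 9.26, 9.67, 9.51 and 9.15 in wild types and 9.11, 9.14, 9.28, 9.05 and 9.16 in mutants. Wild types 3 and 4 were the highest of the 10 mice, and the groups overlapped. The change was -0.21 ± 0.10 (SE, adjusted p = 0.564 in limma). Hoxa9, known for its part in blood progenitors and leukaemia, was steady at 11.25, 11.21, 11.37, 11.37 and 11.21 in wild types and 11.21, 11.18, 11.11, 11.22 and 11.32 in mutants. Its change of -0.08 ± 0.06 (SE, adjusted p = 0.772 in limma) had a 95% interval from 0.862-fold to 1.04-fold. The group 10 gene Hoxa10, which patterns the uterus, read 8.73, 9.09, 8.90, 8.42 and 8.66 in wild types and 8.67, 9.12, 9.04, 8.79 and 9.03 in mutants. It overlapped widely between genotypes, with a change of 0.17 ± 0.13 (SE, adjusted p = 0.750 in limma). Its other probe set, at a mean of 4.52, gave -0.10 ± 0.08 (SE). Hoxa11 changed by 0.02 ± 0.07 (SE) and Hoxa3 by -0.01 ± 0.06 (SE).

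From HoxB, Hoxb5, a gene of the enteric nervous system, read 8.72, 8.97, 8.74, 8.75 and 8.84 in wild types and 8.66, 8.50, 8.66, 8.82 and 8.58 in mutants. Mutant 4 alone lay in the wild-type range. The change was -0.16 ± 0.08 (SE, adjusted p = 0.558 in limma). Hoxb6 read 8.56, 8.72, 8.38, 8.49 and 8.60 in wild types and 8.95, 8.64, 8.60, 8.71 and 8.56 in mutants. Mutant 1 was above all other mice, and the change was 0.14 ± 0.09 (SE, adjusted p = 0.687 in limma). The hindbrain gene Hoxb3 read 8.59, 8.83, 8.75, 8.60 and 8.46 in wild types and 8.68, 8.59, 8.83, 9.05 and 8.81 in mutants. Its groups overlapped, with a change of 0.14 ± 0.10 (SE, adjusted p = 0.722 in limma), and its other probe set gave 0.12 ± 0.12 (SE). Hoxb4, which expands blood stem cells in culture, read 7.64, 7.77, 7.55, 7.64 and 7.84 in wild types and 7.82, 7.47, 7.64, 7.66 and 7.52 in mutants. No separation was visible, and the change was -0.07 ± 0.08 (SE, adjusted p = 0.859 in limma). Hoxb2 changed by -0.02 ± 0.07 (SE).

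Hoxb9 was below the median in mean signal and is described here because of its values. It read 5.64, 5.48, 5.56, 4.70 and 5.56 in wild types and 5.91, 5.99, 6.16, 5.80 and 6.46 in mutants. Every mutant lay above every wild type, which among all genes held for 3.67% in either direction and among the 33 Hox genes for this one. The change was 0.68 ± 0.18 (SE, unadjusted p = 0.00306, adjusted p = 0.165 in limma). Wild type 4 lay far below the others, and the change was 0.51 without it. Mutant 5 alone exceeded the median of its own array and the olfactory receptor percentile of 6.24, so this is a change of signal near background. With a tubule score as covariate the change was 0.75 (adjusted p = 0.0513 in limma), and with a collecting duct score it was 0.58 (adjusted p = 0.225).

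HoxC genes, which include motor neuron patterning genes of brachial (Hoxc8), thoracic (Hoxc9) and lumbar levels (Hoxc10), differed little. Hoxc9 read 8.51, 8.58, 8.49, 8.50 and 8.22 in wild types and 8.53, 8.28, 8.34, 8.30 and 8.23 in mutants. Wild type 5 was the lowest of all and mutant 1 sat among the other wild types, so the change of -0.12 ± 0.08 (SE, adjusted p = 0.708 in limma) came with overlap. Hoxc10 read 9.28, 9.58, 9.02, 8.77 and 9.28 in wild types and 9.31, 9.40, 9.34, 9.34 and 9.41 in mutants. The wild types spread over a wider range (SD 0.31) than the mutants (SD 0.04). Its change was 0.17 ± 0.13 (SE, adjusted p = 0.750 in limma). The values of Hoxc4 were 8.02, 7.67, 8.03, 7.72 and 7.69 in wild types and 7.68, 7.91, 7.93, 7.67 and 7.61 in mutants. Wild types 1 and 3 were highest, and the change was -0.07 ± 0.10 (SE, adjusted p = 0.887 in limma). Hoxc5 changed by 0.04 ± 0.13 (SE), Hoxc6 by -0.05 ± 0.09 (SE) and Hoxc8 by -0.04 ± 0.09 (SE).

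Group 10 could be compared across 3 clusters. Hoxa10, Hoxc10 and Hoxd10 all had positive changes (0.17, 0.17 and 0.43), none of which passed. In group 9, Hoxa9, Hoxc9 and Hoxd9 stood at -0.08, -0.12 and 0.25, and Hoxb9, near background, at 0.68. Group 5 was above the median in all 3 measured clusters, with changes of -0.29 (Hoxa5), -0.16 (Hoxb5) and 0.04 (Hoxc5). Whether paralogs of a group differ in their change was not tested. The mean over the 20 Hox genes above the median lay between 8.79 and 8.95 in wild types and between 8.85 and 8.90 in mutants.

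Further probe sets existed for some members, 15 in all, and 0 of them were called. Unadjusted p-values under 0.05 were given by 1431392_at of Hoxa3 (0.20 ± 0.09 SE, mean 5.29) and by 1450832_at of Hoxc5 (0.16 ± 0.07 SE, mean 5.87), both below the array median.

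Genes that work with or upstream of Hox proteins were read in the same limma fit, from lists chosen with earlier results of these data known. Of 10 measured TALE factors, 0 were called (1.26% of all genes were) and 2 had an unadjusted p under 0.05 (11.0% of all genes), with a median change of -0.05. Tgif2, a repressor of this family, went from between 7.76 and 8.18 in wild types to between 8.33 and 8.85 in mutants, apart in all mice, as were 3.67% of all genes (0.51 ± 0.12 SE, adjusted p = 0.0911). Pknox1 stood at -0.25 ± 0.10 (SE, adjusted p = 0.419). The other 8 ran from -0.43 (Pknox2, adjusted p = 0.691) and -0.20 (Pbx2, adjusted p = 0.586) to 0.09 (Meis3).

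Chromatin regulators of the clusters were not called either. For 25 Polycomb genes there were 0 calls, where 1.26% of all genes were called. Of the 25, 3 had an unadjusted p under 0.05, against 11.0% of all genes, and the median change was -0.02. Jarid2, an accessory subunit of Polycomb complex PRC2, stood at -0.40 ± 0.11 (SE, adjusted p = 0.192) and, of the 10 fits with 1 mouse left out, was called only in that without wild type 5 (-0.50, adjusted p = 0.0401). Pcgf5 stood at 0.66 ± 0.25 (SE, adjusted p = 0.410). For 13 Trithorax genes and demethylases the count was 0 (again against 1.26%), with 1 at an unadjusted p under 0.05 (again against 11.0%) and a median of -0.13. Kmt2c, a histone H3K4 methyltransferase, stood at -0.25 ± 0.08 (SE, adjusted p = 0.296) and Kdm6b, an H3K27 demethylase, at -0.16 ± 0.08 (SE, adjusted p = 0.584).

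Calls came from retinoic acid enzymes in the list of embryonic inputs, 3 of the 5 measured. Of 16 measured genes in the list, 2 rose and 1 fell, where 0.566% of all genes rose and 0.698% fell. The rise of Cyp26a1 was known when the list was chosen, so the count is no independent evidence. Aldh1a2, which makes retinoic acid, rose from between 7.87 and 9.21 to between 9.80 and 10.69 (1.74 ± 0.24 SE, adjusted p = 0.00588 in limma). Cyp26a1, which breaks it down, rose from between 6.04 and 7.21 to between 9.08 and 10.61 (3.35 ± 0.31 SE, adjusted p = 0.000275). Aldh1a1, another enzyme that makes it, fell from between 5.84 and 6.42 to between 4.76 and 5.38, a change of -1.06 ± 0.14 (SE, adjusted p = 0.00371). All mutants and 3 of the wild types lay below the olfactory receptor percentile of 6.24, so the size of this fall is one of signal near background. All 3 were separate between genotypes, as were 3.67% of all genes. The other enzymes, Cyp26b1 and Aldh1a3, stood at 0.03 (adjusted p = 0.990) and -0.13 (adjusted p = 0.587). Egr2, a hindbrain activator of Hox genes with a mean of 4.91, also near background, stood at 0.25 ± 0.08 (SE, adjusted p = 0.267), and the receptor gene Rarg at -0.18 ± 0.08 (SE, adjusted p = 0.552). The median of the list was 0.03.

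**Figure D4:**
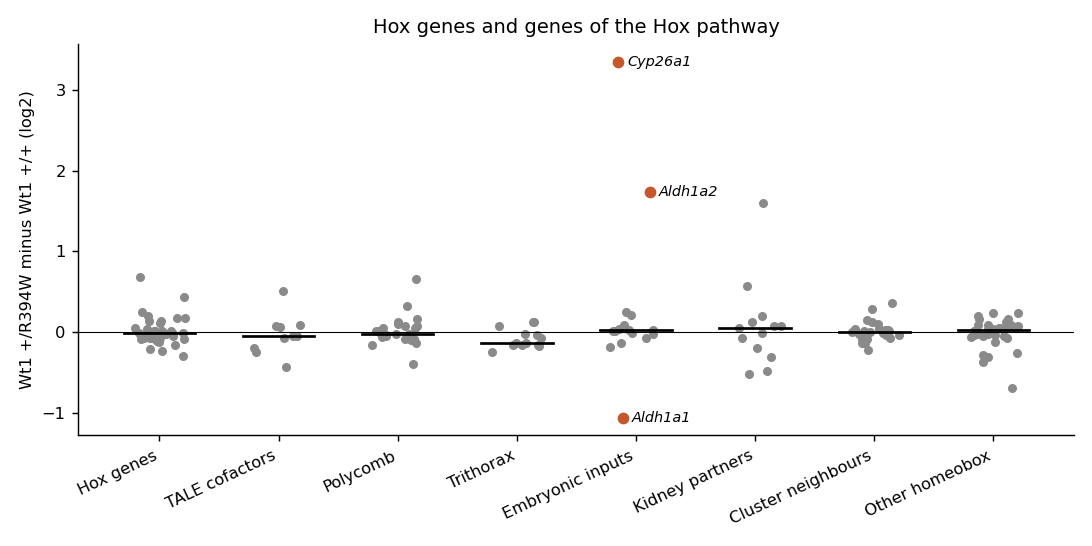
Change between the genotypes (mutant minus wild type, log2 scale) of each measured gene, for the 33 Hox genes and 7 lists of related genes, with a black line at each list's median and called genes in orange. All called genes, Cyp26a1, Aldh1a2 and Aldh1a1, are embryonic inputs, and the medians lie between -0.13 and 0.05.

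Kidney partners and targets of Hox proteins gave 0 calls among 13 genes (1.26% of all genes were called), with 5 at an unadjusted p under 0.05, against 11.0% of all genes. Gdnf, the growth factor that Hox group 11 proteins help to switch on in nephron progenitors, read between 5.32 and 6.58 in wild types and between 6.42 and 8.51 in mutants (1.60 ± 0.43 SE, adjusted p = 0.177 in limma). The wild-type mean, 6.03, lay below the olfactory receptor percentile of 6.24, so the size of this difference rests on wild-type signal near background. Foxd1 stood at -0.48 ± 0.14 (SE, adjusted p = 0.229).

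Of 25 neighbours and nested transcripts of the clusters 0 were called (1.26% of all genes), with 4 at an unadjusted p under 0.05 (11.0% of all genes) and a median change of 0.00. Hoxb5os, a noncoding transcript next to Hoxb5, read 10.04, 10.16, 10.29, 10.19 and 10.16 in wild types and 10.63, 10.70, 10.59, 10.54 and 10.21 in mutants. Mutant 5 lay in the wild-type range and the other 4 mutants above it. The change was 0.36 ± 0.09 (SE, adjusted p = 0.132 in limma), and without mutant 5 it was 0.44 and passed (adjusted p = 0.0153). For comparison, Hoxb5 stood at -0.16. Lnpk, beside HoxD, stood at 0.29 ± 0.10 (SE, adjusted p = 0.297). Hoxa11os and Hoxd3os1 had changes of 0.04 and -0.03.

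Homeobox genes outside the 4 clusters gave 0 calls among 34 (1.26% of all genes), with 4 at an unadjusted p under 0.05 (11.0% of all genes) and a median of 0.03. Meox1, a factor of somites and mesenchyme, read between 10.07 and 10.64 in wild types and between 9.22 and 10.01 in mutants, apart in all mice, as 3.67% of all genes were (-0.69 ± 0.15 SE, adjusted p = 0.0643 in limma). Of the fits with 1 mouse left out, it was called only in that without mutant 4 (-0.79, adjusted p = 0.0315). Zfhx3 stood at -0.26 ± 0.08 (SE, adjusted p = 0.212).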

How the data were processed

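Glomerular RNA of 10 mice was labelled with biotin and hybridised to 1 expression array each. The deposited values are log2 expression from RMA, per the submitters' processing notes, with version and settings not given in the sources used here. RMA corrects background, makes arrays alike and summarises probes, which compresses changes of weak signals. Array medians ran from 6.31 to 6.39 and correlations between arrays from 0.985 to 0.997. Scanner files were not used here.

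Of 45101 probe sets, 64 controls were left out. The platform annotation gave 1 gene for 34945 probe sets, several for 932 and none for 9160. RefSeq (GRCm38.p6) matched 34741 of the single-gene probe sets. Genotypes came from the labels, and mouse numbers only name mice in accession order. The genotype contrast was fitted in R (version 4.3.3) by limma (version 3.58.1), without covariates, two-sided, with Benjamini-Hochberg adjustment over 45037 probe sets. This step was also tested on simulated data with known answers. Alternatives changed centring, normalization, filters, variance models, array weights, probe sets, thresholds, tubule or collecting duct scores as covariates and the mice used. Figures used matplotlib (version 3.10.9, Python version 3.11.15).

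Named genes were all Hox genes (values in every mouse for 14 above the array median with the smallest p), up to 2 uncalled genes of each list besides the called ones, Wt1 and Cyp26a1. Hoxb9, a few cofactors, enzymes and transcripts, the further probe sets and the printed promoters were chosen after their values were seen. The members and lists were chosen with earlier results of these data known.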

Additional observations from a re-analysis of the deposited data

Results flagged for a closer look

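In 5 of 102 groups of 5 mice checked, 1 mouse lay far from the others, and chance gives about 1 in 20. Of these, 4 were among the 66 groups of Hox genes. Hoxb9 read 4.70 in wild type 4 against 5.48 to 5.64 in the other wild types. Hoxc6 read 9.14 in wild type 3 against 9.39 to 9.48. Hoxc9 read 8.22 in wild type 5 against 8.49 to 8.58. Hoxc8 read 10.58 in mutant 2 against 10.32 to 10.36 in the other mutants. Outside the clusters, Jarid2 read 10.51 in wild type 5 against 10.91 to 11.06.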

How the results depend on the processing

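The count of called Hox genes was 0 in all 12 settings other than leaving out a mouse, and from 0 to 1 with 1 mouse left out, where the 1 was Hoxa5 without mutant 4. Over all probe sets 384 were called, with 110 in mice numbered close together, 144 at an adjusted p under 0.01, 580 at one under 0.10, and from 216 to 301 with 1 mouse left out (242 without wild type 1 and 216 without wild type 4). Leaving out 1 mouse also gave from 0 to 1 calls among Polycomb genes, neighbours of the clusters and other homeobox genes. Among 298 values of 15 Hox genes, 1 had another sign: Hoxa10 at -0.10, when probe sets that can match several transcripts were left out and its weak probe set took over. The count of Hox genes above the array median ran from 18 to 28 over 4 other rules and was 20 without any 1 mouse. No paired analysis was possible because the labels give no number that mice of both genotypes share. The 13 Hox genes below the array median also lay below the olfactory receptor percentile of 6.24, and their changes are of signal near background.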

Other observations

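Among the probe sets annotated to more than 1 gene, 3 were annotated to 2 Hox genes each, so they name no single gene. Hoxb8 (1 probe set) and Hoxd4 (2 probe sets) were covered only in this way, and such probe sets are not in the counts over 33 Hox genes. Among the 3, 1421537_at read between 6.65 and 6.87 in wild types and between 6.25 and 6.55 in mutants (-0.30 ± 0.07 SE, unadjusted p = 0.00163, adjusted p = 0.116 in limma). These ranges did not overlap, as was so for 3.67% of all genes. Probe set 1450209_at read between 7.73 and 8.58 in wild types and between 7.57 and 7.79 in mutants (-0.38 ± 0.13 SE, unadjusted p = 0.0135, adjusted p = 0.329 in limma), with overlap. Probe set 1452493_s_at stood at -0.04 ± 0.11 (SE). Since 2 of the 3 were annotated to Hoxd4, at least 1 of 1421537_at (mean 6.61) and 1450209_at (mean 7.87) bears on HoxD. Both of these means lay above the array median of 6.36, and both changes were negative.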
